A study of Mus musculus with 9 samples.

Results

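The peaks described here are those that the authors called for the transcription factor XBP1 in mouse livers in which XBP1 had been silenced, either unoperated (basal) or 48 h after partial hepatectomy. They were taken as every peak of the silenced basal list (177 peaks) and of the silenced 48 h list (102 peaks), 279 of the 64078 peaks in the 8 deposited lists. Each was compared with the list of the unsilenced liver of the same state, which held 2482 peaks in basal liver and 7212 peaks 48 h after hepatectomy, and an overlap of 1 bp or more counted as a shared peak. All livers came from wildtype C57Bl6-J mice and their chromatin was pulled down with the antibody M-186 against XBP1. Hepatectomy removed most of the liver of mice aged 8 weeks. In the silenced groups an adenovirus that expresses a short hairpin RNA against XBP1 (shXBP1) constitutively, and so is not limited to a cell type by its promoter, had been injected into the tail vein 7 days earlier. Clodronate liposomes, which deplete Kupffer cells, the resident macrophages of the liver, were given before the virus. The labels do not state whether the unsilenced livers received the control virus and liposomes, nor whether a library came from 1 mouse or a pool.

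XBP1 acts in the unfolded protein response, a programme that raises the folding, export and degradation capacity of the endoplasmic reticulum. The sensor IRE1 removes a short intron from its messenger RNA, and only the spliced form encodes the strong activator. In hepatocytes, which secrete large amounts of plasma protein, it is also known for its part in lipid synthesis. A hairpin RNA lowers the messenger RNA without removing the gene, so some protein can remain, and a peak left after silencing may hold remaining XBP1 or signal of another kind. These cannot be told apart here, and no measure of XBP1 itself was used to check the silencing.

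There was 1 library per condition, so the spread between animals is unknown and no test was made. Intervals are Clopper-Pearson 95% intervals of shares and cover counting error only. They treat peaks as independent, though several silenced peaks can lie on 1 unsilenced peak, so those for silenced peaks may be too narrow. Scores are the authors' own value per peak. They were used to rank peaks within a list, with rank 1 the highest score. Their levels were not compared between lists, where only their order was related, by Spearman's rho. Many silenced peaks had equal scores (115 of the 177 basal and 70 of the 102 at 48 h, in ties of up to 21 and 18 peaks). Tied peaks are ranked by position, so their order within a tie is arbitrary. Sites are given by their position in the mouse build mm9, since no gene annotation of that build was used here. The silenced lists stood apart from the other 6 before any overlap was counted. Their shortest peak was 53 bp wide, a width held by 13 peaks of the silenced basal list and 20 of the silenced 48 h list, while the shortest peak of the other lists was between 190 bp and 266 bp wide. The sources used here give neither read numbers nor calling settings, so a difference in depth or in fragment length and a loss of binding cannot be told apart.

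In basal liver, the strongest XBP1 sites were those that still carried a peak after silencing. Of the 2482 basal peaks, 118 overlapped a silenced peak (4.75%, 3.95 to 5.67%). All of the 38 highest-ranked basal peaks were among these 118. Ranks 1 to 248 held 99 of the 118. Of the 100 highest-ranked basal peaks 81 had a silenced counterpart, against 18 of the 150 at ranks 101 to 250 and 6 of the 1482 at ranks 1001 to 2482. The median rank of the basal peaks with a counterpart was 66.5, with quartiles of 30.25 and 123.75.

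The 10 highest-ranked peaks of the silenced basal list all lay on a basal peak, at a median basal rank of 8.5. The first, on chromosome 2 (34627188 to 34627885), had a score of 59.45 and a width of 698 bp, the widest of that list. It lay within the basal peak of rank 1 (34627094 to 34628027, 934 bp). The second, on chromosome 10 (86168006 to 86168598, score 43.66, 593 bp), lay within the basal peak of rank 2, which was 986 bp wide. The top of the silenced list thus had the order of the top of the basal list at these sites.

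The third to the sixth silenced basal peaks came from basal ranks 12, 7, 8 and 3. The third was on chromosome 2 (158222817 to 158223348, score 36.09, 532 bp) and the fourth on chromosome 14 (21493184 to 21493717, score 31.13, 534 bp). The fifth was on chromosome 6 (28429847 to 28430380, score 30.08, 534 bp) and the sixth on chromosome 11 (50139032 to 50139528, score 28.12, 497 bp). Each of these 4 sites carried a peak in all 8 lists of the series.

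The seventh silenced basal peak was of another kind. It lay on chromosome 10 (47373726 to 47374260, score 27.28, 535 bp) over the basal peak of rank 61. That site had a peak of rank 949 in the unsilenced 48 h list and none in the silenced 48 h list. The eighth, on chromosome 19 (7054924 to 7055007, score 26.3), was only 84 bp wide and lay within the basal peak of rank 9, which held 3 separate silenced peaks. The ninth, on chromosome 9 (44187238 to 44187772), had a score of 26.19 and lay on the basal peak of rank 22. The tenth, on chromosome 12 (17273103 to 17273541), had a score of 24.28 and lay on that of rank 35.

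Strong basal peaks without a silenced counterpart began at rank 39. The first 5, at ranks 39, 46, 47, 49 and 53, lay on chromosomes 5, 14, 9, 11 and 7. After them came peaks on chromosome 14 (119336620 to 119337246, rank 57, score 131.44) and chromosome 5 (123585409 to 123585959, rank 59, score 130.34). The next lay on chromosome 12 (45310625 to 45311395, rank 75, score 107.69), chromosome 15 (80085178 to 80085940, rank 77, score 105.9) and chromosome 8 (35215280 to 35215833, rank 78, score 105.9). Silenced 6 h liver had a peak at each of these 10 sites, and the chromosome 12 site also carried one in the silenced 48 h list. None of the 10 was thus free of peaks in all 3 silenced libraries. The 10 highest-ranked basal peaks with a counterpart each had a silenced 6 h peak too. The share of all basal peaks with a silenced 6 h peak was not counted, so this is not a trait of the 10 sites.

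At the weak end, 11 of the 118 basal peaks with a counterpart ranked below 500. The lowest were those on chromosome 1 (155261301 to 155261527, rank 2395, score 7.53), chromosome 10 (81641141 to 81641601, rank 2244, score 8.72) and chromosome 17 (39984276 to 39984572, rank 1662, score 11.27). The sites on chromosomes 1 and 10 had a peak in all lists but the silenced 48 h list. The site on chromosome 17 lay in a dense group of silenced peaks that is described further on.

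**Figure D1:**
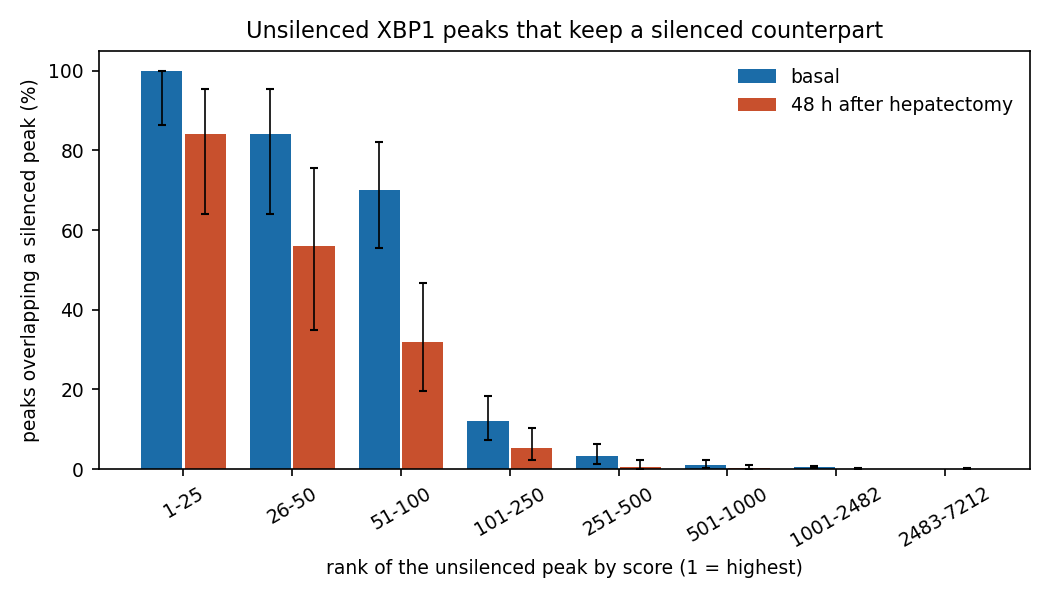
Share of unsilenced XBP1 peaks (y axis, %) that overlapped a silenced peak of the same state, by rank of the unsilenced peak (x axis, bins of unequal size), for basal liver (blue) and 48 h after hepatectomy (red). Bars are shares in 1 library pair and error bars are Clopper-Pearson 95% intervals; the share goes from 100% and 84% at ranks 1 to 25 to 12% and 5.33% at ranks 101 to 250.

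At 48 h after hepatectomy the peaks left were again mostly strong sites of the unsilenced liver, but a smaller share of the list. Of the 7212 unsilenced peaks, 66 overlapped a silenced peak (0.915%, 0.708 to 1.16%). The 6 highest-ranked peaks had a counterpart and the peak of rank 7 did not. Of the 100 highest-ranked peaks 51 had a counterpart (51%, 40.8 to 61.1%), against 81 of 100 in basal liver (81%, 71.9 to 88.2%). Among the 2482 highest-ranked 48 h peaks, the length of the basal list, 62 had a counterpart (2.50%). Each unsilenced list was also limited to as many of its highest-scoring peaks as the silenced list holds. The shares were then 51.0% for 48 h and 54.8% for basal liver, but these cuts differ in depth (102 and 177 peaks). Among the 177 highest-ranked peaks of each list the shares were 32.2% at 48 h and 54.8% in basal liver. The difference between the states was not tested.

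Ranks 1 to 721 held 60 of the 66. The median rank of the 48 h peaks with a counterpart was 47, with quartiles of 20.5 and 85.75. All of the 10 highest-ranked silenced 48 h peaks lay on an unsilenced 48 h peak, at a median rank of 25.5 and at ranks no lower than 48. They thus came from the strong end of the unsilenced list, though not from its very first places in most cases.

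The first silenced 48 h peak was at the same site as the first silenced basal peak, on chromosome 2 (34627274 to 34627804, score 33.67, 531 bp), over the unsilenced 48 h peak of rank 5. The second was likewise at the site of the second silenced basal peak, on chromosome 10 (86168112 to 86168640, score 24.65, 529 bp), over the peak of rank 9. The third and the fourth lay on chromosome 11 (5420748 to 5421083, score 22.91, 336 bp) and chromosome 7 (107007195 to 107007552, score 22.79, 358 bp), over unsilenced peaks of ranks 40 and 20. All 10 of the highest-ranked silenced 48 h peaks carried a peak in each of the other 7 lists.

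Of the remaining 6, the fifth lay on chromosome 19 (60866591 to 60866900) with a score of 21.19 and the sixth on chromosome 14 (21493243 to 21493717) with 20.87. The seventh lay on chromosome X (71515656 to 71516013) with 19.51 and the eighth on chromosome 3 (63768541 to 63769000) with 18.73. Last came chromosome 11 (50139142 to 50139359) with 17.84 and chromosome 2 (75496911 to 75497237) with 16.21. Their unsilenced peaks ranked between 6 and 48. Some of the highest-ranked unsilenced 48 h peaks, ranks 5, 9 and 6, thus had silenced peaks of ranks 1, 2 and 9, while others had silenced peaks much further down.

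The unsilenced 48 h peak of rank 1, on chromosome 11 (120433967 to 120435226, 1260 bp), held 2 silenced peaks, of which the better had rank 43 and a score of 10.03. The peak of rank 2, on chromosome 2 (143990842 to 143992356, 1515 bp), held a silenced peak of rank 16 that was 503 bp wide. Ranks 3 and 4, on chromosome 9 (106793843 to 106794891) and chromosome 13 (55463924 to 55464626), had silenced peaks of ranks 37 and 32. Ranks 10, 11 and 12, on chromosome 12 (86715477 to 86716490) and at 2 places of chromosome 3 (58329520 to 58330399, and 130412179 to 130413064), had silenced peaks with scores of 8.6, 11.53 and 8.6. In basal liver the same held for a few of the first peaks: rank 4, on chromosome 3 (95754490 to 95755193), had a silenced peak of rank 15, rank 6, on chromosome 2 (75496579 to 75497368), one of rank 14, and rank 10, on chromosome 3 (63768427 to 63769198), one of rank 22. Spearman's rho between the score of an unsilenced peak and its best silenced score was 0.54 over 118 basal sites and 0.55 over 66 sites at 48 h, as a description.

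Among the 10 highest-ranked 48 h peaks without a counterpart, 7 had a peak in the silenced basal list and all 10 had one in the silenced 6 h list. The first 5, at ranks 7, 8, 18, 21 and 28, lay on chromosomes 3, 8, 10, 9 and 11. The others lay on chromosome 2 (157104340 to 157105310, rank 29), chromosome 1 (13551440 to 13552310, rank 34), chromosome 7 (148725097 to 148726085, rank 36), chromosome 16 (11134263 to 11135246, rank 39) and chromosome 11 (96777351 to 96778187, rank 41). The sites at ranks 21, 36 and 41, on chromosomes 9, 7 and 11, were without a peak in both silenced lists described here. They were the sites of basal ranks 47, 53 and 49. The 10 highest-ranked 48 h peaks with a counterpart each had a silenced 6 h peak too. The share of all 48 h peaks with one was not counted.

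Only 6 of the 66 unsilenced 48 h peaks with a counterpart ranked below 500. The lowest were on chromosome 11 (48685010 to 48685199, rank 6727, score 7.29), chromosome 17 (39982951 to 39983202, rank 4453, score 10.64) and chromosome 6 (129186160 to 129186437, rank 4173, score 11.53). The sites on chromosomes 11 and 6 had no peak in basal liver, silenced or not, and none in the silenced 6 h list.

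Silenced peaks were narrow parts of the unsilenced peaks on which they lay. In basal liver the 158 silenced peaks on a basal peak had a median width of 110.5 bp, with quartiles of 72.25 bp and 261.75 bp, and the 118 basal peaks under them had a median width of 634 bp. At 48 h the 78 silenced peaks on an unsilenced peak had a median width of 95.5 bp and the 66 peaks under them 886.5 bp. A silenced peak spanned a median of 17.2% of its basal peak and 12.3% of its 48 h peak. The shortest peak was 53 bp wide in both silenced lists, but 227 bp in the basal and 190 bp in the 48 h unsilenced list. In the silenced 6 h list it was 247 bp, with a median of 333 bp. Whether these widths come from peak calling or from binding cannot be told apart here.

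Width went with score within each silenced list. Silenced basal peaks of 100 bp or less numbered 87 and had a median score of 8.53, while the 90 wider ones had a median score of 12.44. In the silenced 48 h list the 55 peaks of 100 bp or less had a median score of 8.6 and the 47 wider ones 11.87. Spearman's rho between score and width was 0.55 over the 177 silenced basal peaks and 0.58 over the 102 silenced 48 h peaks, given as a description, since both values come from the same reads of a peak.

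Unsilenced peaks with a counterpart were wider than those without, but their rank also differed. The median width was 634 bp with and 314 bp without a counterpart in basal liver, and 886.5 bp and 289 bp at 48 h. Within the 100 highest-ranked basal peaks the medians were nearly equal, at 691 bp for the 81 with a counterpart and 693 bp for the 19 without. Within the 100 highest-ranked 48 h peaks they were 925 bp for the 51 with a counterpart and 736 bp for the 49 without.

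**Figure D2:**
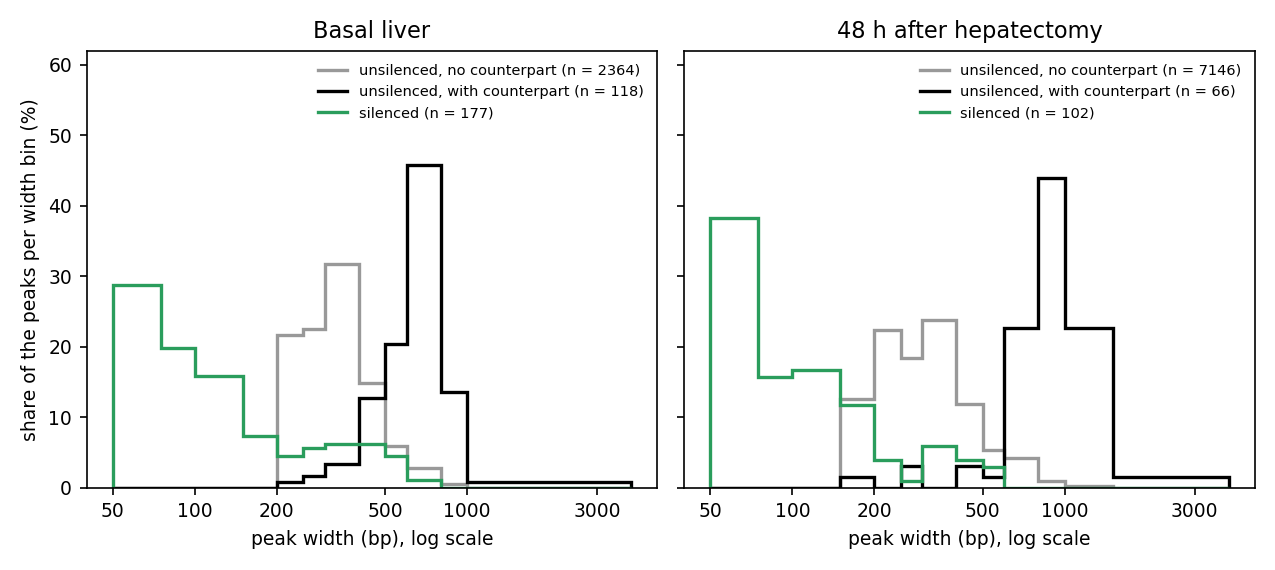
Distribution of peak widths (x axis, bp, log scale, bins of unequal size; y axis, share of the peaks of a group per bin, %) for silenced peaks (green) and for unsilenced peaks with (black) and without (grey) a silenced counterpart. Silenced peaks had medians of 103 bp in basal liver and 94 bp at 48 h, far to the left of the unsilenced peaks that they overlapped. The shortest peak was 53 bp in both silenced lists, against 227 bp in the basal and 190 bp in the 48 h unsilenced list.

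Most silenced peaks lay inside the unsilenced peak, near its middle. In basal liver 153 of the 158 were wholly inside, and their midpoints were a median of 82.75 bp from the centre of the basal peak. At 48 h 76 of the 78 were wholly inside, at a median distance of 84.75 bp from the centre. The midpoint fell within 100 bp of that centre for 92 of the 158 silenced basal peaks and for 44 of the 78 silenced 48 h peaks.

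Some unsilenced peaks held several silenced ones. In basal liver 29 of the 118 peaks with a counterpart held more than 1 silenced peak, and at 48 h 11 of the 66 did. Neighbouring silenced peaks in such a peak were separated by a median of 87.5 bp in basal liver and 81 bp at 48 h. The basal peak with the most silenced peaks was on chromosome 17 (39979918 to 39983743, 3826 bp wide, rank 309), with 10. The peaks of rank 9 on chromosome 19 (7054351 to 7055282) and rank 99 on chromosome 10 (62620994 to 62621507) held 3 each. At 48 h the peak with the most was that of rank 14 on chromosome 6 (28429750 to 28430470), with 3 silenced peaks of ranks 27, 38 and 39, where the silenced basal list had a single peak of 534 bp.

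**Figure D3:**
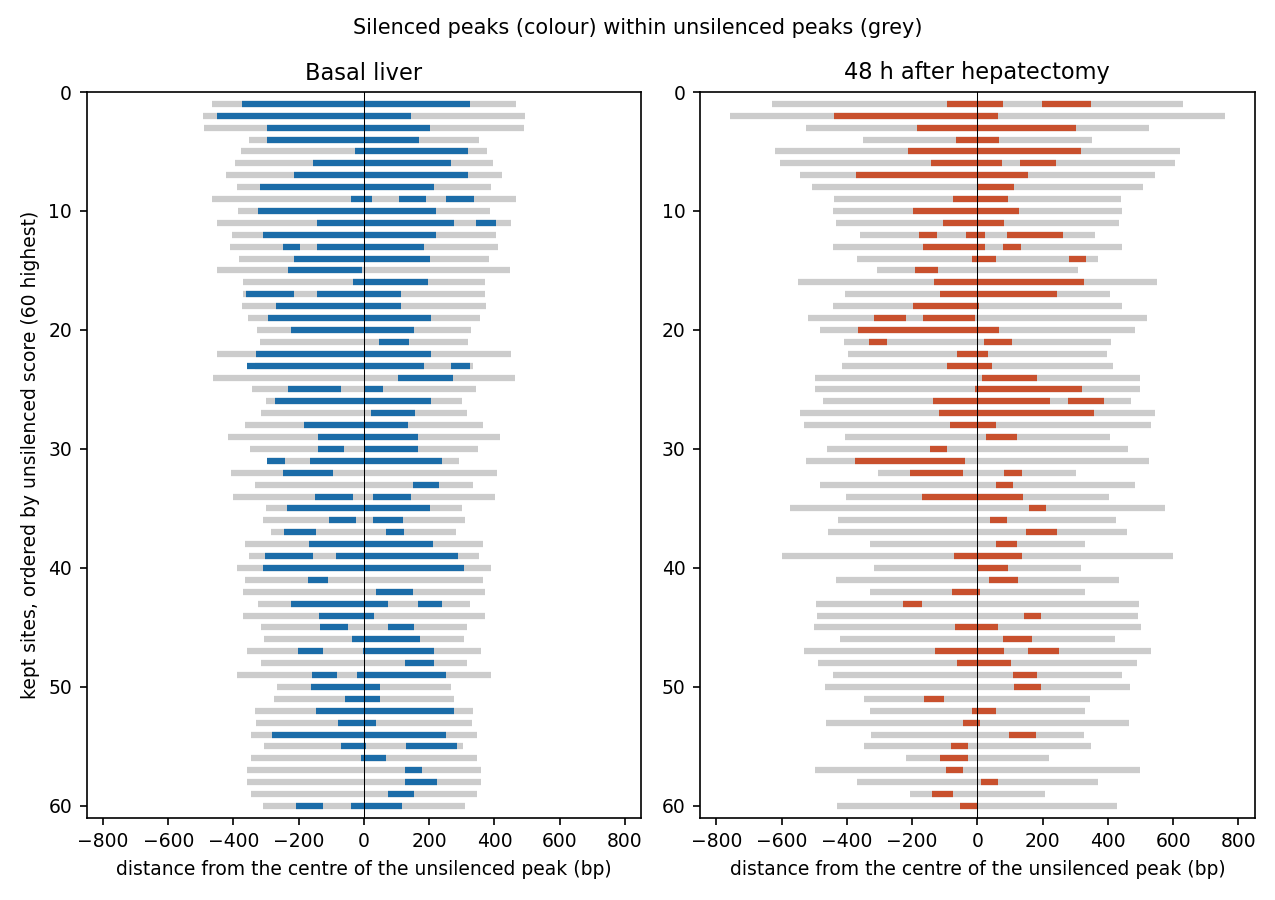
Silenced peaks (blue or red) drawn within the unsilenced peak that they overlapped (grey), for the 60 highest-ranked sites with a counterpart in each state; the x axis is the distance from the centre of the unsilenced peak in bp and each row of the y axis is a site. Silenced 48 h peaks spanned less of the unsilenced peak (median 12.3%) than silenced basal peaks (median 17.2%), and most lay near the centre.

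Both silenced lists held many of the same sites. Of the 177 silenced basal peaks 53 overlapped a silenced 48 h peak (29.9%, 23.3 to 37.3%), and of the 102 silenced 48 h peaks 56 overlapped a silenced basal peak (54.9%, 44.7 to 64.8%). With peaks this narrow, neighbours on 1 site need not touch: where every peak was resized to 500 bp around its midpoint the shares were 44.6% and 67.6%. The 60 overlapping pairs lay on 20 chromosomes, and the midpoints of a pair were a median of 44.5 bp apart.

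Counted by unsilenced peak, 53 of the 118 basal peaks with a counterpart (44.9%, 35.7 to 54.3%) overlapped a 48 h peak with a counterpart, and 54 of the 66 such 48 h peaks (81.8%, 70.4 to 90.2%) overlapped a basal one. The set left at 48 h was thus for the most part contained in the set left in basal liver. The sites were present in both unsilenced livers in nearly all cases: 115 of the 118 basal peaks with a counterpart overlapped some 48 h peak, and 64 of the 66 such 48 h peaks overlapped some basal peak. Over all peaks, 2184 of the 2482 basal peaks (88.0%) overlapped a 48 h peak, so the basal count is not far from that of the whole list. Of all 7212 48 h peaks, 2187 (30.3%) overlapped a basal peak. The 48 h peaks with a counterpart mostly ranked high, and the share at like ranks was not counted. The 10 highest-ranked 48 h peaks without a counterpart all overlapped a basal peak as well.

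Silenced peaks common to both lists had higher median scores and widths than the others of their list. Wide peaks meet the 1 bp rule more readily and score went with width, so the rule itself may add to this contrast. The others also include peaks at sites kept in both states, such as the silenced basal peak of rank 83 on chromosome 19 (60866433 to 60866578). The 53 common silenced basal peaks had a median score of 13.44 and a median width of 276 bp, against 9.32 and 88.5 bp for the other 124. The 56 common silenced 48 h peaks had a median score of 11.34 and a median width of 139.5 bp, against 8.6 and 60 bp for the other 46. Of the 10 highest-ranked silenced basal peaks 9 were common, the exception being the seventh, on chromosome 10 (47373726 to 47374260). All 10 of the highest-ranked silenced 48 h peaks were common. Among the overlapping pairs the scores of both lists were only loosely related, with Spearman's rho of 0.27 over 60 pairs, some of which share a peak, given as a description.

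The silenced peaks of a common site could differ in width. At the site on chromosome 2 near 158222817 the silenced basal peak was 532 bp wide and the silenced 48 h peak (158223079 to 158223218) 140 bp. At the site on chromosome 7 near 107007133 the widths were 498 bp and 358 bp.

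Among all 2196 overlapping pairs of a basal and a 48 h unsilenced peak, 54 kept a silenced peak in both states, 64 in basal liver only and 10 at 48 h only, while 2068 had none in either. By median, pairs kept in both states were the highest-ranked, at 32.5 in basal liver and 34 at 48 h. Those kept in basal liver only had median ranks of 89.5 and 128.5, and the 10 kept at 48 h only had 172.5 and 193. Of the 41 pairs within the 50 highest ranks of both lists, 32 were kept in both states, 6 in basal liver only, none at 48 h only and 3 in neither. By median, the pairs kept in 1 state thus ranked lower in both unsilenced lists than those kept in both, though single pairs did not. A peak can enter more than 1 pair: the basal peak of rank 309 was in pairs kept in both states and in pairs kept in basal liver only.

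The silenced scores of strong sites kept in basal liver only varied. The site on chromosome 3 (65196153 to 65196904), of rank 5 in basal liver and rank 7 at 48 h, had a silenced basal peak of rank 86 (score 10.11). Those on chromosome 8 (3467425 to 3468053), of ranks 27 and 8, and chromosome 16 (11134463 to 11135147), of ranks 25 and 39, had silenced basal peaks of ranks 53 and 71. Higher silenced scores were found on chromosome 6 (37546963 to 37547668), of ranks 40 and 43, with a silenced basal peak of rank 13 (score 22.66), and on chromosome 15 (88649651 to 88650299), of ranks 44 and 89, with one of rank 19 (score 20.54). Among the pairs kept at 48 h only, the highest basal rank was that of chromosome 12 (45310625 to 45311395), of ranks 75 and 69, followed by chromosome 11 (16407731 to 16408442), of ranks 100 and 74. Their silenced 48 h peaks had ranks 79 and 76 and a score of 7.21 each. Apart from the sites that the rule in the methods names, the sites of this paragraph were chosen after their values were seen.

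**Figure D4:**
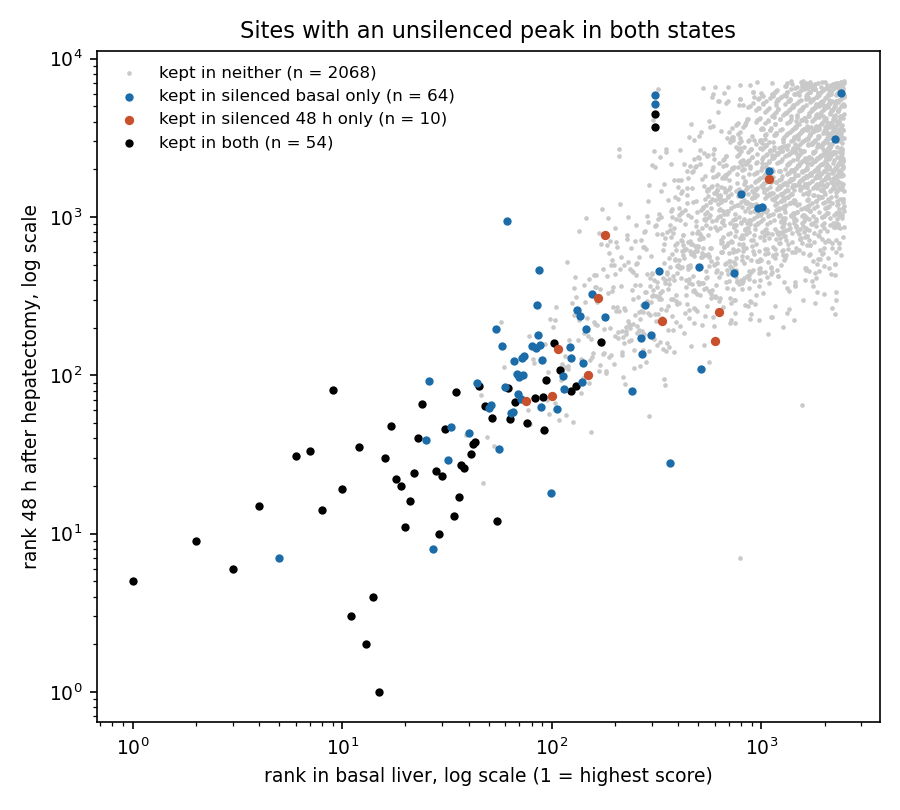
Rank in basal liver (x axis) against rank 48 h after hepatectomy (y axis), both on log scales with 1 the highest score, for the 2196 overlapping pairs of unsilenced peaks. Pairs with a silenced peak in both states (black, 54) sit at high ranks of both lists, pairs with one in basal liver only (blue, 64) or at 48 h only (red, 10) mostly beyond them, and pairs with none are grey; the column of points at basal rank 309 is the wide peak on chromosome 17.

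Most silenced peaks were sites of the other livers too. Each of the 5 unsilenced lists overlapped between 85.9% and 91.5% of the silenced basal peaks and between 76.5% and 84.3% of the silenced 48 h peaks. The silenced 6 h list, with 4325 peaks, overlapped 159 of the 177 silenced basal peaks (89.8%) and 78 of the 102 silenced 48 h peaks (76.5%). All 53 common silenced basal peaks had a silenced 6 h peak, and so did 106 of the 124 silenced basal peaks that were not common (85.5%). Of the silenced 48 h peaks that were not common, 22 of 46 had one (47.8%). In all 7 other lists together, 51 silenced basal peaks (28.8%) and 54 silenced 48 h peaks (52.9%) were found. Over all unsilenced peaks, 88.0% of basal peaks overlapped a 48 h peak and 30.3% of 48 h peaks overlapped a basal peak. For the other lists the share over all peaks was not counted, so these overlaps cannot be read as a trait of the silenced peaks.

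**Figure D5:**
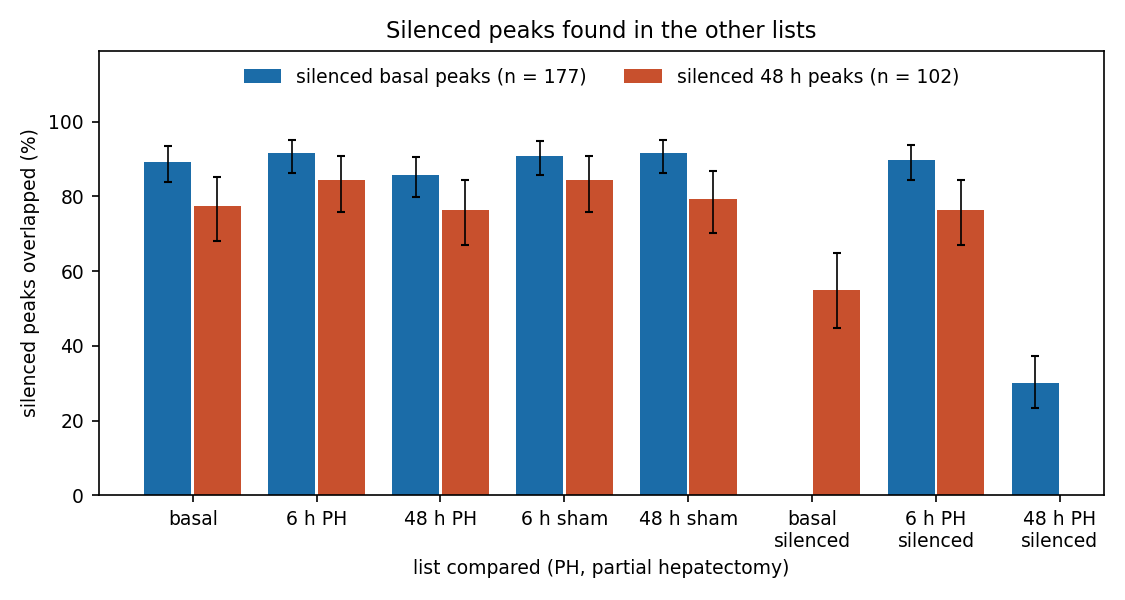
Share (y axis, %) of silenced basal peaks (blue, n = 177) and of silenced 48 h peaks (red, n = 102) that overlapped a peak of each other list (x axis; a list is not compared with itself), with Clopper-Pearson 95% intervals. The 5 unsilenced lists and the silenced 6 h list, of 2482 to 23087 peaks, overlapped at least 76.5% of either. The silenced lists overlapped 54.9% and 29.9% of each other's peaks, but they are far shorter and their peaks narrower, so these shares are not on a par.

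Of the silenced peaks, 158 of 177 (89.3%, 83.7 to 93.4%) lay on a basal peak and 78 of 102 (76.5%, 67.0 to 84.3%) on an unsilenced 48 h peak. The 19 silenced basal peaks off the basal list were narrow, with a median width of 84 bp and none wider than 180 bp, and 15 of them overlapped no peak of any other list. The highest-ranked was on chromosome 9 (3022097 to 3022222, rank 17, score 20.92). The second, on chromosome 8 (74752093 to 74752158, rank 21, score 20.54), had a peak in both 6 h unsilenced lists, both 48 h unsilenced lists and the silenced 6 h list. Of the first 5, the others were on chromosome 9 (3000388 to 3000502, rank 30), chromosome 3 (96293138 to 96293199, rank 32) and chromosome 6 (3151479 to 3151539, rank 52), and only that on chromosome 3 had a peak elsewhere.

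The silenced basal peaks off the basal list were mostly gathered in 2 small stretches. A stretch of 4832 bp on chromosome 2 (98502485 to 98507316) held 6 silenced basal peaks, and a stretch of 25515 bp on chromosome 9 (3000036 to 3025550) held 5. Neither stretch held a peak in any of the other 7 lists. These 11 were among the 19 peaks off the basal list. On chromosome 9 the first peak of any other list started at 3403345.

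The last stretch, on chromosome 17 (39979972 to 39985647, 5676 bp), held 14 silenced basal peaks, the densest group of the list, and 5 silenced 48 h peaks. Unlike the others it carried peaks in every list of the series. The unsilenced 6 h hepatectomy list and the 48 h sham list had 1 peak each there, and the silenced 6 h list had 5. Each of the single peaks overlapped every silenced basal peak of the stretch, so a count of peaks does not measure signal here. Its 3 basal peaks ranked 309, 491 and 1662, and its best silenced basal peak ranked 27. The 3 stretches were found by chaining silenced basal peaks within 50 kb, keeping groups of 5 or more, a rule chosen after the values were seen. Without them the share of silenced basal peaks on a basal peak was 94.7%, and 4.64% of the basal peaks kept a counterpart.

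The 24 silenced 48 h peaks off the unsilenced 48 h list were spread out. Some were close to it: 5 lay within 500 bp of an unsilenced 48 h peak, while 9 were more than 100 kb from the nearest. Only 2 of the 24 lay in the stretch on chromosome 17, and 16 overlapped no peak of any other list. The first was a peak of 53 bp on chromosome X (51379270 to 51379322, rank 11) with a score of 16.21. The next were both on chromosome 7, at 71286254 to 71286430 (rank 17) with a score of 14.62 and at 113379579 to 113379832 (rank 19) with 13.54. The last of the 5 were on chromosome 11 (86397185 to 86397328, rank 20) and chromosome 6 (31075573 to 31075691, rank 24), with 13.05 each. None of these 5 had a peak in any other list. In all, 10 of the 50 highest-ranked silenced 48 h peaks were off the unsilenced list, against 4 of the 50 highest-ranked silenced basal peaks. Of these, 8 and 2, respectively, overlapped no peak of any other list. Over the whole lists, 24 of 102 silenced 48 h peaks and 19 of 177 silenced basal peaks were off, so the first 50 were near the rate of their list. The share that overlapped no other list was 15.7% of the whole silenced 48 h list and 8.47% of the silenced basal list.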

How the data were processed

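Peak lists of XBP1 chromatin immunoprecipitation sequencing were used for the 8 immunoprecipitated libraries, and the basal input library was left out (not analysed here). Bowtie2, MACS 1.4.2 and build mm9 are named, per the submitters' processing notes. The sources used here do not give settings, read depth or whether the input served as control. The deposited score per peak was taken to be a −log10 p-value, judged by its range alone (lowest score of a list 4.33 to 5.27). MACS of this generation usually writes a multiple of that quantity, so the scale is not settled and a printed score should be read only against others of its list. Overlaps, ranks and widths do not depend on the scale.

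Groups were taken from the sample titles. Coordinates are 1-based. Overlaps of at least 1 bp, ranks, widths and Clopper-Pearson 95% intervals came from Python 3.11.15 scripts (pandas 2.3.3, NumPy 2.4.6, SciPy 1.17.1; figures, matplotlib 3.10.9). Overlap counting was checked on simulated lists and against bedtools 2.31.1. With 1 library per condition no test was made.

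Per silenced list, the sites named are its 10 highest-scoring peaks and the 5 highest-scoring off the unsilenced list. Per unsilenced list, they are the 10 highest-scoring peaks with and without a counterpart, the 3 lowest-ranked with one and the 3 holding most silenced peaks. Of those with a counterpart, most are named by their silenced peak. The 10 highest-scoring common sites were part of the rule as well. Other sites were chosen after their values were seen. The members, lists and alternatives were chosen with earlier results of these data known. No genome or annotation of mm9 was used, so planned gene lists, cell type markers and motif counts were not run and no sequence is given.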

Additional observations from a re-analysis of the deposited data

How the results depend on the processing

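Of 91 recomputed values for 14 results, 75 stayed within the 95% interval of the value reported. That interval was Clopper-Pearson for shares, a binomial interval for peak-number ratios and one from ordered values for median ranks and widths. For width ratios the unsilenced median was held fixed. An overlap of 50% of the shorter peak left the shares of silenced peaks on an unsilenced one at 89.3% and 76.5%. Nearly all such silenced peaks lay wholly inside, so this alternative could hardly move them. With only as many highest-scoring unsilenced peaks as silenced ones, the share of unsilenced peaks with a counterpart was 54.8% in basal liver and 51.0% at 48 h, and the share of silenced peaks on an unsilenced one was 70.6% and 61.8%. With as many 48 h peaks as basal peaks the first share was 2.50% at 48 h, an alternative chosen after seeing the data. The share of silenced basal peaks on a basal peak was 80.8% with midpoints within 250 bp, 83.6% with unsilenced and silenced peaks limited to widths up to 2 kb and to chromosomes 1 to 19 and X, and 94.7% without the 3 dense stretches, the last also chosen after seeing the data. The filter on width removes the peak of 3826 bp on chromosome 17. The ratio of silenced to unsilenced median width took only silenced peaks on an unsilenced peak and unsilenced peaks with a counterpart. For peaks above the median score of each list it was 0.331 in basal liver and 0.173 at 48 h. With the full lists it was 0.174 and 0.108. With peaks within 500 bp merged, the ratio of basal to silenced basal peak numbers was 18.9, against 14.0. The share of silenced basal peaks on a silenced 48 h peak was 40.1% with midpoints within 250 bp, 44.6% with peaks resized to 500 bp and 39.2% with equal numbers of silenced peaks, an alternative also added later. The reverse share was 65.7% and 67.6% in the first 2 of these. No paired analysis was possible because each condition has 1 library. Unknown read depth limits every count of peaks.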
